A study of Homo sapiens with 18 samples.

Results

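TRAIL, the death-inducing ligand encoded by TNFSF10, was followed together with its receptors and the proteins that set caspase-8 activity. The 9 genes were the ligand TNFSF10, the signalling receptors TNFRSF10A, TNFRSF10B and FAS, the decoy receptors TNFRSF10C and TNFRSF10D, the adaptor FADD, the initiator caspase CASP8 and its regulator CFLAR. They were found by their symbols and make up 9 of the 62754 genes in the count matrix, and each symbol matched 1 gene. RNA-seq was performed on the human endothelial line EA.hy926, which descends from umbilical vein cells fused with A549, a lung epithelial line. Cells received transfection reagent without siRNA (Mock), a non-targeting siRNA (siNT) or a pool of siRNAs against ELMO1 (siELMO1), with both siRNAs at 10 nM, and were lysed before (0 h) or after 24 h of poly(I:C) at 1 μg/ml, a synthetic double-stranded RNA that TLR3 senses. All cells were kept overnight in low serum before poly(I:C), and each of the 6 conditions had 3 libraries. The 0 h cells were lysed 48 h after transfection, and no cells kept for another 24 h without poly(I:C) were analysed here, so poly(I:C) and the added time in culture cannot be told apart.

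TRAIL binds TNFRSF10A and TNFRSF10B, whose cytoplasmic death domains gather FADD and caspase-8 into a complex in which caspase-8 is activated. TNFRSF10C lacks a cytoplasmic death domain and TNFRSF10D carries a truncated one, so both bind TRAIL without transmitting the death signal. FAS, the receptor of FAS ligand, builds the same kind of complex, and the CFLAR protein (cFLIP), which resembles caspase-8 but has no protease activity, competes for places in it.

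The promoters of the ligand and of CFLAR, the members with the largest increases at 24 h, are shown here as the 250 bases before a start site annotated by RefSeq on GRCh38.p14, read along the gene's own strand. In the TNFSF10 sequence capitals mark a match, on either strand, to the core of the interferon-stimulated response element (ISRE), which is GAAA followed by any 2 bases and GAAA again (chr3:172523431-172523680, minus strand). In the CFLAR sequence (chr2:201118466-201118715, plus strand), the most upstream of 4 CFLAR windows, capitals mark a match to the NF-κB consensus.
TNFSF10: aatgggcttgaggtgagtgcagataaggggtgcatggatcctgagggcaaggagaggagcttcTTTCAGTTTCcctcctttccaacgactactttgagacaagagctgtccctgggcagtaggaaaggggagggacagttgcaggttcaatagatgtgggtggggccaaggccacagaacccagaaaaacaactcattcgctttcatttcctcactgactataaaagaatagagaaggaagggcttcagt
CFLAR: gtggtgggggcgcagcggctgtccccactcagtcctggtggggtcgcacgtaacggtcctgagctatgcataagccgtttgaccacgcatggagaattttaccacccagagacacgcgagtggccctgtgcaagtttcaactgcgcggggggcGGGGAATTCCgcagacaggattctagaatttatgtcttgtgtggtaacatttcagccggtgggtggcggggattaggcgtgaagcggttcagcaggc

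The TNFSF10 match began 187 bases before the start site and the CFLAR match 97 bases before it. Over the 35116 RefSeq promoter windows, which run from 250 bases before to 50 bases after a start site, 3.57% held the ISRE core, 7.66% held TTCNNNGAA, the gamma-interferon activated sequence, and 11.3% held the NF-κB consensus, each on either strand. The other 3 windows of CFLAR and the window of FADD held none of the 3 motifs. No window was available for TNFRSF10A, TNFRSF10B, TNFRSF10C or TNFRSF10D, so their promoters were not searched. Of the 3 windows of CASP8, 1 held an ISRE core match across its start site and a TTCNNNGAA match 200 bases upstream, and 1 of the 3 windows of FAS held an NF-κB match 157 bases upstream. These matches describe letters in the windows and are not measured binding sites.

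The library totals lay between 40374756 and 73850946 estimated counts. ELMO1, the siRNA target, was at 2.66 to 3.32 counts per 1000000 TMM-scaled library counts (CPM) in the siNT libraries at 0 h and at 0.299 to 0.419 CPM in the siELMO1 libraries, and at 2.98 to 3.59 against 0.155 to 0.360 CPM at 24 h. The siELMO1 library numbered 1 at 0 h stood apart, with a chi-square per gene of 70.9 and 79.1 against the other 2 of its group, while all other pairs within a group lay between 10.2 and 29.2. Mitochondrially encoded genes took 1.86% of its counts against 4.02% and 3.95% in those 2, and between 1.31% and 2.42% in the other groups. The sum of the 10 endothelial markers, most of it ENG and CDH5, was higher in siELMO1 than in the other groups. At 0 h it was 2591 to 2797 CPM per library against 1921 to 2006 in siNT and 1827 to 1938 in Mock. At 24 h it was 2429 to 2965 CPM against 1804 to 2005 and 1360 to 1724. Single markers were not compared between groups. CLDN5 and EMCN stayed at or below 0.210 CPM. The 5 epithelial markers, mainly KRT8 and KRT18 with CDH1 at 0 in all 18 libraries, summed to between 766 and 1088 CPM at 0 h, highest in siELMO1, and to between 484 and 628 CPM at 24 h. The 5 leukocyte markers summed to between 32.4 and 97.1 CPM at 0 h and between 137 and 283 CPM at 24 h, nearly all of it CD68, with CD3E at 0 in all 18 libraries. The part of these markers and of the mitochondrial share in the results below was not tested. In bulk RNA, fewer cells with a transcript and less transcript per cell cannot be told apart. The paper reports massive death of siNT cells under poly(I:C), with much less in Mock cells and apoptosis inhibited in siELMO1 cells. It gives this death as the likely reason for the lower inflammatory transcripts of siNT. It also reports an arrest of the cell cycle in siELMO1 cells. How far cell death or the arrest shaped the differences between conditions given below was not tested. Each condition's libraries are stated to be biological replicates, and log2 fold changes are given with their standard error from the edgeR quasi-likelihood fit, with p-values adjusted over all 15167 genes tested.

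TNFSF10 was the member that changed most. In the Mock libraries it had 0 counts in all 3 libraries at 0 h and stood at 69.0, 62.8 and 100.3 CPM at 24 h. In the siNT libraries it was at 0.120, 0 and 0.165 CPM at 0 h and at 27.8, 22.7 and 52.7 CPM after 24 h. In the siELMO1 libraries it was at 0.095, 0.1005 and 0 CPM at 0 h and at 49.5, 47.3 and 83.2 CPM after 24 h. Thus the ligand went from at most 11 counts per library at 0 h to at least 1271 at 24 h, and the library numbered 3 was the highest in each 24 h group.

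A library of 0 counts allows up to 3 at 95% confidence, if counts are independent of each other. With 3 counts per library as the floor, TNFSF10 was at least 1859-fold higher at 24 h in Mock. Summed over libraries, the ratio was 355-fold in siNT (95% exact binomial interval 227 to 590, from 19 counts at 0 h). The ratio was 862-fold in siELMO1 (95% interval 482 to 1728, from 11 counts at 0 h). These intervals and the floor cover counting error only. The counts were computed from read coverage, and a read pair can add more than 1 count. The intervals are therefore too narrow, and the floor may be too low and the 1859-fold bound too high. The increase passed the test in all conditions (adjusted p = 1.8e-10 in Mock, 3.3e-09 in siNT and 9.8e-10 in siELMO1), while the size of the response cannot be compared between conditions because the 0 h levels were at or close to 0.

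At 24 h the ligand differed between conditions. TNFSF10 was lower in siNT than in Mock by 1.17 on the log2 scale (log2 fold change −1.17 ± 0.29, adjusted p = 0.0036), with no overlap between the 3 libraries of each. It was higher in siELMO1 than in siNT by 0.80 ± 0.29 (adjusted p = 0.031). The highest siNT library, at 52.7 CPM, nevertheless lay above 2 of the 3 siELMO1 libraries. Between libraries of the same number, which are not known to be paired, the siELMO1 library was the higher each time. Both calls were lost with DESeq2 (adjusted p = 0.062 and 0.21), and the siELMO1 call was also lost in a fit of only the 6 libraries compared (0.80, adjusted p = 0.055), without siNT replicate 1, without siNT replicate 2 or without siELMO1 replicate 3, with log2 values between 0.49 and 1.25 over the libraries left out. The transcript coding for the full protein of 281 residues made up 89.9% ± 2.5 of the TNFSF10 transcripts in Mock at 24 h, 88.9% ± 1.0 in siNT and 89.6% ± 0.6 in siELMO1 (SD, n = 3).

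**Figure D1:**
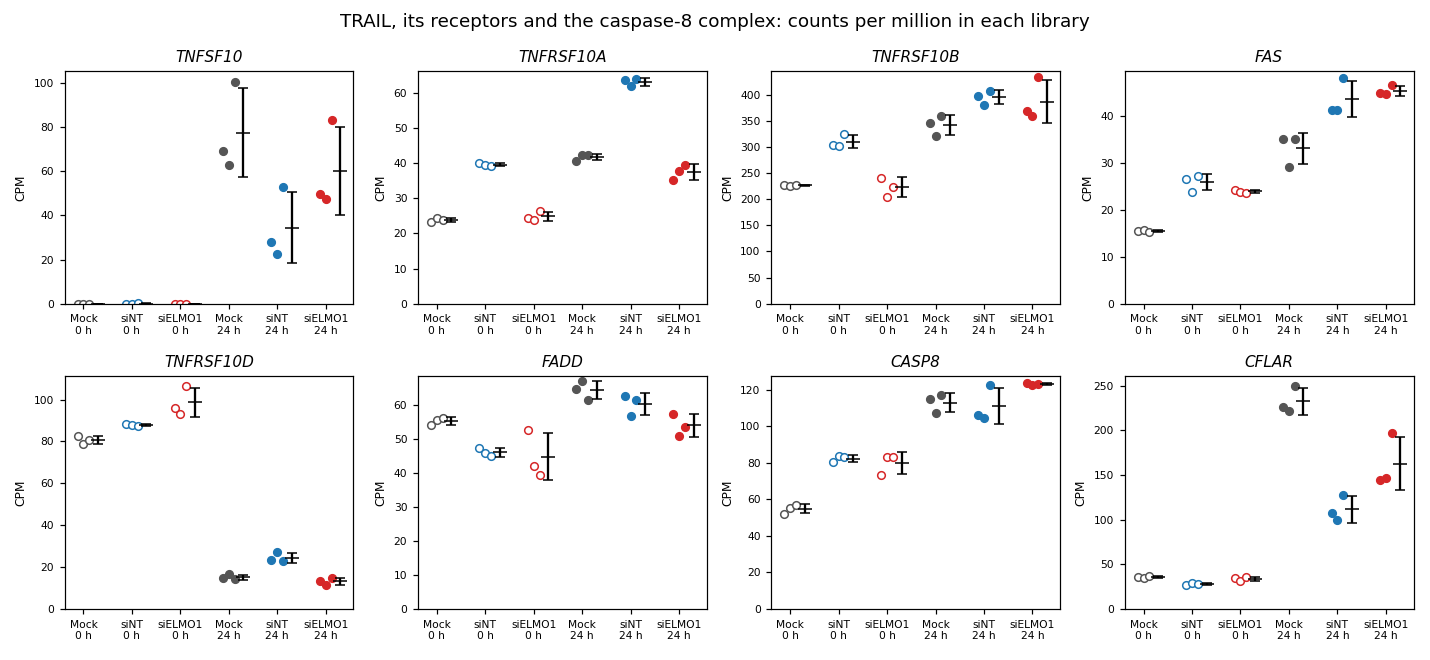
Levels in CPM (vertical axes from 0) of 8 genes in each of the 18 libraries, with open points for 0 h, filled points for 24 h of poly(I:C) and a bar for the mean and SD of each group. TNFSF10 is near 0 in all 0 h groups and TNFRSF10D falls from above 78 CPM to below 28 CPM, while CFLAR rises in every group.

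All 8 members that passed the filter on low counts were called in each of the 3 comparisons of 24 h with 0 h, and TNFRSF10C was the member that did not pass. TNFSF10 passed this filter only through its 24 h libraries, so its place among the members called higher was largely fixed by the filter. In Mock, 7 members were higher and 1 was lower at 24 h, against 30.7% of all tested genes called higher and 29.6% called lower. In siNT the same counts, 7 higher and 1 lower, stood beside 28.6% and 25.2% of all genes. In siELMO1 they again were 7 and 1, beside 28% and 26.9% of all genes. The median log2 fold change of the 8 members was 0.93 in Mock, 0.55 in siNT and 0.71 in siELMO1, and that of all tested genes was at most 0.014 in size. With a fold change over 2 required as well, 5 members passed in Mock, 3 in siNT and 3 in siELMO1, beside 14.5%, 9.42% and 11.4% of all genes.

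The signalling receptors rose by much less than the ligand. TNFRSF10B (DR5), chr8:23020133-23069031 on the minus strand of GRCh38, was the most abundant receptor at every condition, with 171 ± 0.27 transcripts per 1000000 (TPM, corrected for transcript length) in Mock at 0 h against 21.8 ± 0.64 TPM for TNFRSF10A (DR4), chr8:23190452-23225102 on the same strand, and 10.4 ± 0.54 TPM for FAS, chr10:88953813-89029605 (SD, n = 3). The TNFRSF10B to TNFRSF10A ratio of TPM lay between 5.33 ± 0.11 in siNT at 24 h and 8.62 ± 0.58 in siELMO1 at 24 h. TNFRSF10B overlaps RHOBTB2 on the other strand, and FAS overlaps STAMBPL1 on the same strand and ACTA2 on the other. TNFRSF10C overlaps a protein-coding gene and a long non-coding RNA gene on the same strand. CASP8 and CFLAR each overlap a long non-coding RNA gene on the same strand. The use of strand in the authors' counting is not given in the sources used here, so reads of these overlaps cannot be assigned with certainty.

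TNFRSF10A stood at 23.2, 24.3 and 23.9 CPM in Mock at 0 h and at 40.7, 42.4 and 42.3 CPM after 24 h. In siNT it was at 40.1, 39.4 and 39.3 CPM at 0 h and at 63.5, 61.8 and 64.0 CPM after 24 h. In siELMO1 it was at 24.5, 23.8 and 26.3 CPM at 0 h and at 35.3, 37.6 and 39.6 CPM after 24 h. Before poly(I:C), siNT libraries therefore already held TNFRSF10A at about the level that Mock and siELMO1 libraries reached after it. The increase at 24 h was 0.81 ± 0.05 on the log2 scale in Mock, 0.67 ± 0.05 in siNT and 0.59 ± 0.05 in siELMO1 (adjusted p = 2.6e-10, 4.9e-09 and 2.6e-08).

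TNFRSF10B stood at 227, 225 and 227 CPM in Mock at 0 h and at 346, 321 and 358 CPM after 24 h. The siNT libraries held 304, 302 and 324 CPM before poly(I:C) and 397, 381 and 407 CPM after it. The siELMO1 libraries held 241, 204 and 223 CPM before poly(I:C) and 368, 358 and 434 CPM after it. No 24 h library overlapped the 0 h libraries of its own condition, and the siNT libraries started highest. The increase was 0.59 ± 0.07 in Mock, 0.35 ± 0.07 in siNT and 0.79 ± 0.07 in siELMO1 on the log2 scale (adjusted p = 9.9e-07, 4.1e-04 and 3.2e-08), and it was larger in siELMO1 than in siNT by 0.45 ± 0.10 (adjusted p of the difference = 0.0019).

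FAS was the signalling receptor with the largest relative increase. It stood at 15.4, 15.8 and 15.3 CPM in Mock at 0 h and at 35.1, 29.2 and 35.0 CPM after 24 h, a log2 fold change of 1.09 ± 0.08. It rose from 26.7, 23.9 and 27.2 CPM to 41.4, 41.4 and 48.1 CPM in siNT (0.75 ± 0.07), and from 24.3, 23.9 and 23.7 CPM to 44.9, 44.7 and 46.7 CPM in siELMO1 (0.92 ± 0.07). All 3 increases passed the test (adjusted p = 8.0e-10, 1.4e-07 and 9.3e-09). The log2 increase was smaller in siNT than in Mock by 0.34 ± 0.10 (adjusted p = 0.019), a difference that was no longer called with library totals in place of TMM scaling (adjusted p = 0.088), without the filter on low counts (adjusted p = 0.058) or when 1 of 7 libraries was left out (Mock replicates 1 and 3 at either time, siNT replicate 3 at 0 h, siNT replicates 1 and 2 at 24 h). FAS reads were spread over many of its 61 annotated transcripts, and the share of the transcript coding for 335 residues ran from 9.80% to 69.5% among the 0 h libraries alone, so no form of FAS was compared.

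The decoy receptors moved the other way or were not measurable. TNFRSF10C, a decoy anchored in the membrane by a lipid, had at most 6 counts in any library. It had 0 counts in all libraries at 0 h, where 0 counts allow up to 0.0753 CPM. Its reads could have been assigned to the genes that overlap it on the same strand, which was not tested. TNFRSF10D (DcR2), chr8:23135588-23164027 on the minus strand, was the only member that fell. In Mock it stood at 82.4, 78.7 and 80.9 CPM at 0 h and at 14.6, 16.6 and 14.4 CPM after 24 h. In siNT it went from 88.2, 87.8 and 87.2 CPM to 23.3, 27.1 and 22.9 CPM. In siELMO1 it went from 96.1, 93.3 and 106 CPM to 13.6, 11.5 and 14.9 CPM.

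Every 24 h library thus lay far below every 0 h library in its TNFRSF10D level. The log2 fold change was −2.41 ± 0.09 in Mock (5.30-fold lower), −1.84 ± 0.08 in siNT (3.59-fold lower) and −2.89 ± 0.09 in siELMO1 (7.41-fold lower), with adjusted p = 1.1e-13, 5.8e-12 and 1.3e-14. All 3 responses differed from each other. The log2 change in siELMO1 was 1.05 ± 0.12 below that of siNT (difference −1.05, adjusted p = 2.3e-06) and 0.48 ± 0.12 below that of Mock (difference −0.48, adjusted p = 0.0056), and the change in siNT was 0.56 ± 0.12 above that of Mock (adjusted p = 0.0014). No 50-base stretch was shared between annotated transcripts of TNFRSF10D and those of the other members, and no other annotated gene overlaps it.

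**Figure D2:**
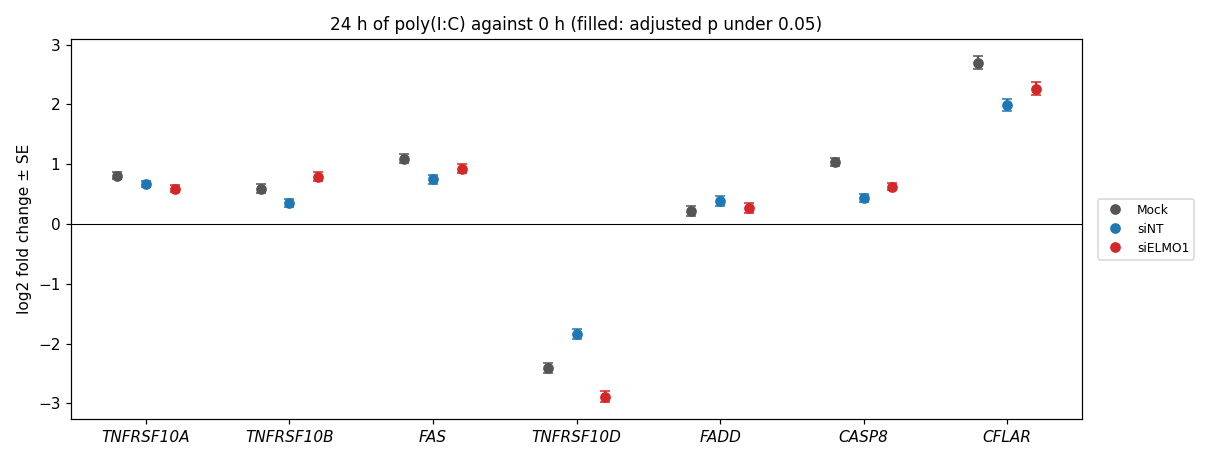
The log2 fold change of 24 h of poly(I:C) against 0 h (vertical axis, points with standard error) for 7 genes in Mock, siNT and siELMO1 cells, all filled because all passed the adjusted p threshold of 0.05. TNFRSF10D is the only gene below 0, at −2.41, −1.84 and −2.89, and CFLAR is the highest, at 2.70, 1.99 and 2.27.

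The opposite changes shifted the balance of receptor transcripts. Signalling TRAIL receptors (TNFRSF10A plus TNFRSF10B) summed to 193 ± 0.52 TPM in Mock, 250.3 ± 14.8 TPM in siNT and 185 ± 17.3 TPM in siELMO1 at 0 h (SD, n = 3). Decoy receptors (TNFRSF10C plus TNFRSF10D) summed to 55.7 ± 0.89, 56.5 ± 0.79 and 64.6 ± 4.5 TPM in the same groups. The ratio of signalling to decoy transcripts was therefore 3.47 ± 0.06 in Mock, 4.43 ± 0.24 in siNT and 2.86 ± 0.19 in siELMO1 before poly(I:C).

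At 24 h this ratio was 30.0, 24.8 and 31.8 in the Mock libraries. It was 23.0, 18.5 and 23.6 in the siNT libraries and 33.0, 38.1 and 35.6 in the siELMO1 libraries. The groups of 24 h did not overlap with any group of 0 h, and at both times the siNT and siELMO1 libraries did not overlap, siNT being higher at 0 h and lower at 24 h. With counts divided by the length of the most counted transcript, the mean signalling to decoy ratio was 2.87, 3.72 and 2.33 at 0 h and 23.6, 17.8 and 29.2 at 24 h for Mock, siNT and siELMO1, which kept this order.

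The ligand itself reached 95.8 ± 25.2 TPM in Mock, 43.5 ± 20.5 TPM in siNT and 77.02 ± 26.8 TPM in siELMO1 at 24 h. Set against the decoy receptors, TNFSF10 transcripts stood at a ratio of 10.0 ± 3.1 in Mock, 2.83 ± 1.49 in siNT and 8.60 ± 2.04 in siELMO1, from at most 0.00396 in any 0 h library. Set against the signalling receptors the ratio was 0.343 ± 0.070, 0.127 ± 0.055 and 0.242 ± 0.056, so transcripts of TNFRSF10A plus TNFRSF10B outnumbered those of the ligand in every 24 h library. These are ratios of transcripts and do not measure proteins at the cell surface.

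**Figure D3:**
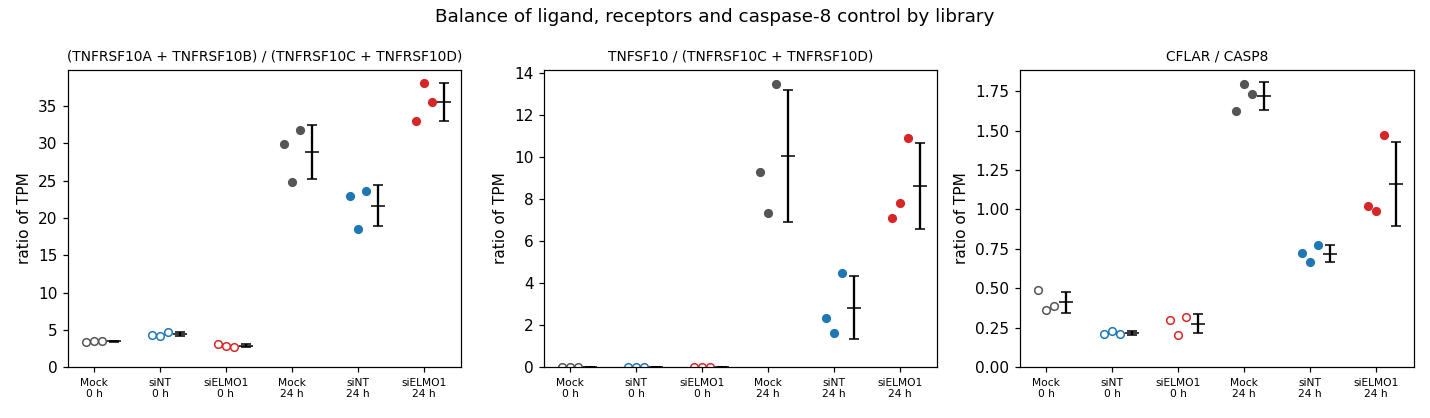
Ratios of TPM (vertical axes from 0) in each library, with the mean and SD of each group: signalling to decoy TRAIL receptors on the left, ligand to decoy receptors in the middle and CFLAR to CASP8 on the right. The signalling to decoy ratio is below 4.7 in all 0 h libraries and above 18 in all 24 h libraries, and the 3 siNT libraries are the lowest at 24 h in each panel.

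Inside the complex, the adaptor, the caspase and its regulator rose by different amounts. FADD, chr11:70203296-70207390, which bridges death receptors and caspase-8, changed least, with 54.0, 55.7 and 56.3 CPM in Mock at 0 h and 64.6, 66.9 and 61.5 CPM at 24 h. Its log2 increase was 0.22 ± 0.08 in Mock (adjusted p = 0.027), 0.39 ± 0.08 in siNT (adjusted p = 6.0e-04) and 0.27 ± 0.08 in siELMO1 (adjusted p = 0.010). With library totals in place of TMM scaling the increase in Mock fell to 0.10 (adjusted p = 0.37) and that in siELMO1 to 0.20 (adjusted p = 0.071), so only the siNT call held under every scaling tried. The Mock call was also lost without any 0 h library or without replicate 1 or 2 at 24 h, and the siELMO1 call without replicate 2 or 3 at 0 h or replicate 1 at 24 h, or in a fit of only its 6 libraries (adjusted p = 0.077). In siELMO1 the 0 h library numbered 1, at 52.8 CPM, stood above the other 0 h libraries at 42.2 and 39.5 CPM and overlapped the 24 h libraries, which lay between 50.8 and 57.4 CPM.

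CASP8, chr2:201233443-201361836, the protease that death receptors activate, stood at 52.2, 55.4 and 57.0 CPM in Mock at 0 h and at 115, 107 and 117 CPM after 24 h. It went from 80.2, 83.6 and 83.1 CPM to 106, 105 and 122 CPM in siNT. It went from 73.1, 83.3 and 83.4 CPM to 124, 123 and 123 CPM in siELMO1. The siRNA groups started above Mock and all conditions ended close together. The log2 increase was 1.04 ± 0.06 in Mock, 0.43 ± 0.06 in siNT and 0.62 ± 0.06 in siELMO1 (adjusted p = 1.4e-10, 1.4e-05 and 1.6e-07), smaller than in Mock by 0.61 ± 0.09 in siNT (adjusted p = 5.0e-05) and by 0.42 ± 0.09 in siELMO1 (adjusted p = 0.0019). The increase in siELMO1 was not called different from that in siNT (0.19 ± 0.09, adjusted p = 0.11), except without siNT replicate 3 at 24 h (0.27, adjusted p = 0.015).

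CFLAR, chr2:201116154-201176687, had the largest increase after the ligand. It stood at 36.2, 34.9 and 36.5 CPM in Mock at 0 h and at 226, 221 and 249.8 CPM after 24 h, 6.49-fold higher (log2 fold change 2.70 ± 0.11). It went from 27.0, 29.6 and 27.8 CPM to 108, 99.2 and 128 CPM in siNT, 3.97-fold higher (1.99 ± 0.11). It went from 34.3, 31.3 and 35.9 CPM to 145, 147 and 197 CPM in siELMO1, 4.81-fold higher (2.27 ± 0.11). At 24 h the 3 conditions did not overlap, in the order Mock, siELMO1, siNT. The increases passed the test (adjusted p = 5.4e-13, 6.4e-11 and 7.9e-12), and that of siNT was smaller than that of Mock by 0.71 ± 0.15 (adjusted p = 0.0014). The increase in siELMO1 was smaller than in Mock by 0.43 ± 0.15 (adjusted p = 0.037), a call lost with library totals (adjusted p = 0.080), without the filter on low counts (adjusted p = 0.10), with mitochondrially encoded genes left out (adjusted p = 0.051) or when 1 of 9 libraries was left out (any Mock library at 0 h, siELMO1 replicates 1 and 3 at 0 h, Mock replicates 1 and 3 or siELMO1 replicates 1 and 2 at 24 h), with differences between −0.59 and −0.35. It was not called different from siNT (0.28 ± 0.15, adjusted p = 0.17), except without siNT replicate 3 at 24 h (0.39, adjusted p = 0.046).

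The CFLAR to CASP8 ratio of TPM was 0.411 ± 0.067 in Mock, 0.216 ± 0.010 in siNT and 0.274 ± 0.061 in siELMO1 at 0 h, and 1.72 ± 0.09, 0.720 ± 0.054 and 1.16 ± 0.27 at 24 h. CFLAR transcripts differ greatly in length, and with gene counts divided by the length of the most counted transcript (14612 bases for CFLAR, 2728 for CASP8) the means were 0.122, 0.0638 and 0.0793 at 0 h and 0.384, 0.187 and 0.247 at 24 h. The rise and the order of the conditions were the same on both scales, while the level of the ratio depended on the scale by more than 3-fold.

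CFLAR makes proteins of different lengths, the long form of 480 residues and the short form of 221 residues that lacks the caspase-like part. Among 24 annotated CFLAR transcripts, the 2 coding for 221 residues made up 29.7% ± 6.0 of CFLAR transcripts in Mock at 0 h and 42.0% ± 2.8 at 24 h (counts per length, SD, n = 3). Their share went from 21.5% ± 5.5 to 33.1% ± 4.6 in siNT and from 29.6% ± 2.2 to 39.6% ± 1.5 in siELMO1. The 2 transcripts coding for 480 residues went the other way, from 24.8% ± 4.9 to 13.1% ± 1.7 in Mock, from 27.7% ± 0.9 to 21.3% ± 1.1 in siNT and from 26.7% ± 4.4 to 16.6% ± 2.2 in siELMO1.

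Of the 2 transcripts coding for 221 residues, CFLAR-211 rose in Mock from 18.5% ± 5.1 to 41.1% ± 3.9. The other, CFLAR-202, fell from 11.2% ± 11.0 to 0.93% ± 1.12, and both directions were the same in siNT and siELMO1. CFLAR-202 ran from 1.37% to 23.1% among the Mock libraries at 0 h, so only the summed classes were compared. CFLAR-205, coding for 250 residues, went from 19.0% ± 0.2 to 23.8% ± 0.6 in Mock. For the 221-residue and 480-residue classes, the 0 h and 24 h libraries of a condition did not overlap. Both forms nevertheless increased in level, the 221-residue class from 6.63 ± 1.23 to 73.9 ± 1.8 TPM in Mock and the 480-residue class from 5.50 ± 0.48 to 23.2 ± 4.0 TPM. At 24 h the 221-residue class was at 25.4 ± 3.0 TPM in siNT and 52.0 ± 12.9 TPM in siELMO1, and the 480-residue class at 16.4 ± 2.3 and 21.3 ± 1.9 TPM. As shares of counts rather than counts per length, the 221-residue class went from 9.30% to 17.0% and the 480-residue class from 62.9% to 41.1% in Mock, the same directions at other levels, as in siNT and siELMO1. These shares are descriptions without a test, and they rest on the authors' assignment of reads among overlapping transcripts. CASP8 reads were divided among 25 transcripts, and the share of those coding for 464 residues ran from 12.2% to 46.1% among the siELMO1 libraries at 0 h, so its forms were not compared.

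**Figure D4:**
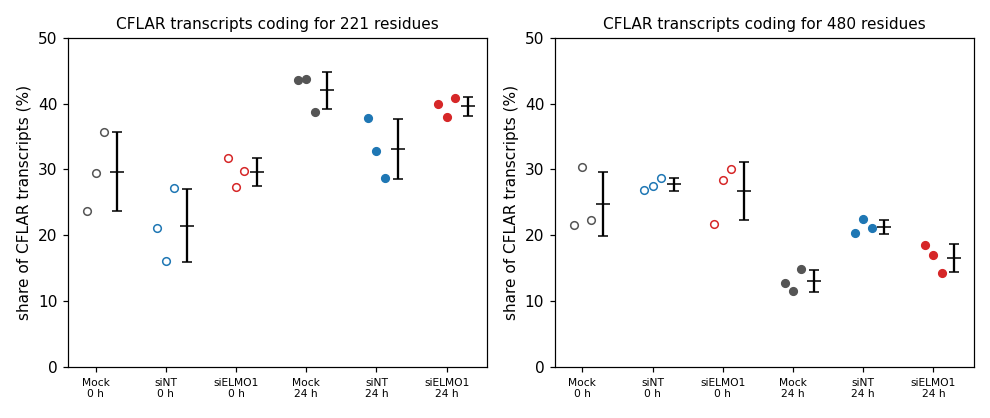
Share of all CFLAR transcripts (percent, counts per length, vertical axes from 0 to 50) held by transcripts coding for 221 residues (left) and 480 residues (right) in each library, with the mean and SD of each group. In each condition the 24 h libraries lie above the 0 h libraries on the left and below them on the right.

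Comparison of siELMO1 with siNT asked whether ELMO1 knockdown changed these genes. At 0 h, 1 of the 8 tested members was higher and 2 were lower in siELMO1, against 31.3% of all tested genes called higher and 31.3% called lower. The member counts were thus no larger than the shares among all genes. TNFRSF10A was lower by 0.67 on the log2 scale (log2 fold change −0.67 ± 0.05, adjusted p = 3.3e-09) and TNFRSF10B was lower by 0.48 (log2 fold change −0.48 ± 0.07, adjusted p = 1.2e-05), with no overlap between libraries. Against Mock at 0 h, neither was called in siELMO1 (0.06 ± 0.05 and −0.02 ± 0.07). CFLAR was higher by 0.27 ± 0.11 (adjusted p = 0.039), a call lost with limma-voom (adjusted p = 0.075), with library totals (adjusted p = 0.061), without the filter on low counts (adjusted p = 0.090) or without replicate 1 or 3 of either group, with log2 values between 0.22 and 0.32 over the libraries left out. FADD was not called (−0.04 ± 0.08) but passed without the siELMO1 library numbered 1 (−0.17, adjusted p = 0.020), while TNFRSF10A and TNFRSF10B were called with and without it.

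At 24 h, 2 of the 8 members were higher and 2 were lower in siELMO1 than in siNT, against 26% and 26.5% of all genes. The higher genes were CFLAR (0.54 ± 0.10, adjusted p = 2.7e-04) and TNFSF10. The lower genes were TNFRSF10A, by 0.75 (log2 fold change −0.75 ± 0.05, adjusted p = 2.2e-09), and TNFRSF10D, by 0.88 (log2 fold change −0.88 ± 0.09, adjusted p = 2.3e-07). TNFRSF10D at 0 h did not pass between these groups (0.17 ± 0.08, adjusted p = 0.078), although all 3 siELMO1 libraries lay above the siNT libraries. It passed there with limma-voom (adjusted p = 0.028), in a fit of only the 6 libraries compared (adjusted p = 0.032) and without siELMO1 replicate 2 at 24 h (adjusted p = 0.043). CASP8 at 24 h was just outside the threshold (0.15 ± 0.06, adjusted p = 0.054). All 3 siELMO1 libraries, at 122.7 to 123.8 CPM, lay narrowly above the highest siNT library, at 122.5 CPM. CASP8 passed with limma-voom and with DESeq2 (adjusted p = 0.045 and 0.027) and with mitochondrially encoded genes left out (adjusted p = 0.046). It also passed without Mock replicate 1 or 3 or siELMO1 replicate 1 at 0 h or siNT replicate 3 at 24 h. FAS, FADD and TNFRSF10B had log2 values of 0.06 ± 0.07, −0.16 ± 0.08 and −0.03 ± 0.07 at 24 h and were not called, except FADD without siELMO1 replicate 1 at 0 h (−0.16, adjusted p = 0.018).

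The non-targeting siRNA also differed from Mock. At 0 h, 6 of the 8 members were called in siNT against Mock, beside 51.6% of all genes. FAS (0.74 ± 0.07), TNFRSF10A (0.73 ± 0.05), CASP8 (0.58 ± 0.06) and TNFRSF10B (0.45 ± 0.07) were higher in siNT, and CFLAR (−0.35 ± 0.11) and FADD (−0.27 ± 0.08) were lower, with adjusted p between 2.5e-09 and 0.011. At 24 h, 6 of 8 were called, beside 50.2% of all genes. TNFRSF10D (0.68 ± 0.09), TNFRSF10A (0.59 ± 0.05), FAS (0.40 ± 0.07) and TNFRSF10B (0.21 ± 0.07) were then higher in siNT, while TNFSF10 and CFLAR (−1.06 ± 0.10) were lower.

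In siELMO1 against Mock, 4 of the 8 members were called at 0 h, beside 50.2% of all genes, and 5 at 24 h, beside 43.6%. FAS (0.63 ± 0.08), CASP8 (0.54 ± 0.06) and TNFRSF10D (0.29 ± 0.08) were higher and FADD (−0.30 ± 0.08) was lower at 0 h. At 24 h FAS (0.46 ± 0.07) and TNFRSF10B (0.18 ± 0.07, adjusted p = 0.047) were higher, and CFLAR (−0.51 ± 0.10), FADD (−0.25 ± 0.08) and TNFRSF10A (−0.16 ± 0.05, adjusted p = 0.019) were lower. The last of these was lost without Mock replicate 2 or 3 or siELMO1 replicate 1, without the filter on low counts or with only the 6 libraries compared (adjusted p = 0.078 and 0.067). The FADD call was lost without replicate 2 of either group or without the filter (adjusted p = 0.052), and the TNFRSF10B call without any 1 of 13 libraries and under 6 of the other settings. In siNT against Mock at 24 h the TNFRSF10B call was lost without Mock replicate 1 or 2 or siNT replicate 3, or without the filter (adjusted p = 0.055). FAS was thus called higher than Mock in both siRNA groups at both times. TNFRSF10A and TNFRSF10B in siELMO1 were close to Mock at 0 h, with log2 differences of 0.06 ± 0.05 and −0.02 ± 0.07. The comparisons with siNT and with Mock share libraries, so their values are not independent of each other.

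Of the 8 members, the response to poly(I:C) was called different for 2 between siELMO1 and siNT, for 4 between siELMO1 and Mock and for 4 between siNT and Mock, beside 34.5%, 28.3% and 31% of all genes. TNFRSF10D was called in all 3 of these contrasts. TNFRSF10B was not called for siELMO1 minus Mock or siNT minus Mock (0.20 and −0.24), but passed in both without siELMO1 replicate 1 at 0 h (0.26, adjusted p = 0.043, and −0.24, adjusted p = 0.044). With a fold change over 2 required as well, TNFSF10 and CFLAR were the members that passed in siNT against Mock at 24 h, beside 6.72% of all genes, and TNFRSF10D was the one for the difference in response of siELMO1 minus siNT, beside 6.2%. By that measure 0 members passed for siELMO1 against siNT (14.6% of all genes at 0 h and 7.31% at 24 h), siELMO1 against Mock (7.79% and 5.09%), siNT against Mock at 0 h (6.51%) or the other differences in response (3.97% for siELMO1 minus Mock and 4.21% for siNT minus Mock).

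**Figure D5:**
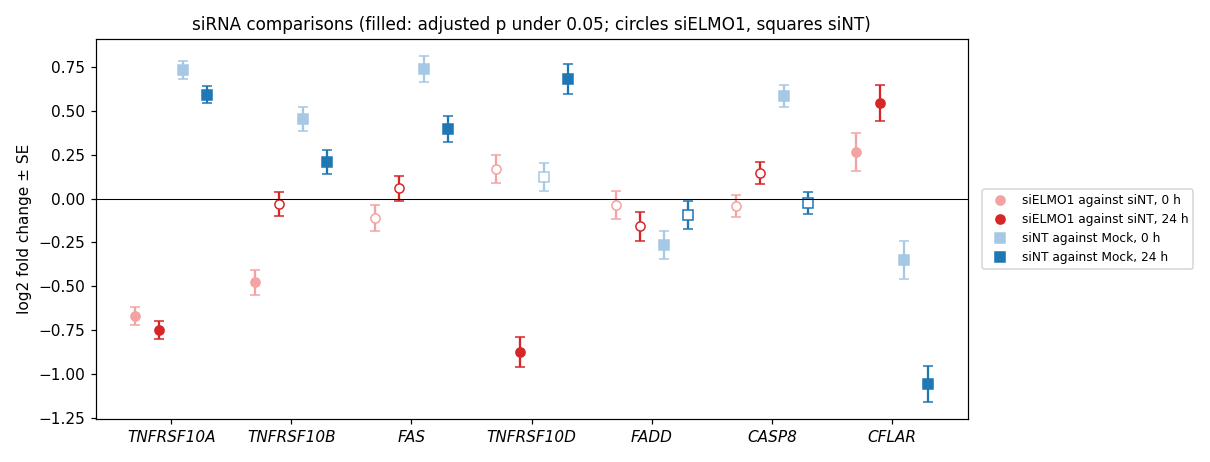
The log2 fold change with standard error (vertical axis) of 7 genes for siELMO1 against siNT (red circles) and siNT against Mock (blue squares), pale for 0 h and dark for 24 h, filled where the adjusted p was under 0.05. TNFRSF10A is below 0 in siELMO1 against siNT and above 0 in siNT against Mock at both times, and TNFRSF10D was called in these comparisons only at 24 h, at −0.88 and 0.68.

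Among 29 further genes of death receptor and caspase-8 signalling, 25 passed the filter on low counts. FAS ligand (FASLG), the necroptosis kinase RIPK3 and the decoy and orphan receptors TNFRSF11B and TNFRSF21 did not, with at most 16 counts in any library. TNF, with 0 counts in all 0 h libraries, passed the filter only through its 24 h libraries. Any call of TNF as higher at 24 h than at 0 h was therefore largely fixed by the filter. At 24 h against 0 h, 18 of the 25 rose and 2 fell in Mock, beside 30.7% and 29.6% of all genes. In siNT 19 rose and 4 fell, beside 28.6% and 25.2%, and in siELMO1 18 rose and 2 fell, beside 28% and 26.9%. The median log2 change of the 25 was 0.97, 0.68 and 0.82, while that of all genes was at most 0.014 in size. Of siELMO1 against siNT, 8 were higher and 11 lower at 0 h, beside 31.3% of all genes in each direction, and 13 were higher and 4 lower at 24 h, beside 26% and 26.5%.

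TNF, the founding ligand of the family, was at 0 counts in all 9 libraries of 0 h. At 24 h it was at 3.37, 1.72 and 3.22 CPM in Mock, at 0.210, 0 and 0.403 CPM in siNT and at 5.99, 6.11 and 11.0 CPM in siELMO1. The means were at least 66.6-fold, 4.41-fold and 131-fold above the floor of 3 counts per library, which may be too low, as stated for TNFSF10. The siELMO1 libraries did not overlap with those of siNT in their TNF level at 24 h (log2 fold change 5.22 ± 0.70, adjusted p = 6.3e-05). BIRC3, a ubiquitin ligase that restrains caspase-8 activation at the TNF receptor, rose in siNT from 3.77 to 93.1 CPM on average (log2 fold change 4.63 ± 0.14, adjusted p = 1.1e-14). The rise of BIRC3 was not particular to siNT, with means going from 1.21 to 160 CPM in Mock and from 0.775 to 95.2 CPM in siELMO1. It was lower in siELMO1 than in siNT at 0 h, at 0.775 against 3.77 CPM (log2 fold change −2.23 ± 0.19, adjusted p = 1.4e-08), and was not called at 24 h (0.03 ± 0.11). TNFAIP3, the ubiquitin-editing enzyme A20, rose in siNT from 30.9 to 316 CPM (3.35 ± 0.08, adjusted p = 9.5e-16). Its means also rose from 19.0 to 533 CPM in Mock and from 15.6 to 427 CPM in siELMO1.

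TNFSF15, the ligand of the death receptor TNFRSF25, was at 63.5 CPM in siELMO1 and 21.2 CPM in siNT at 0 h (log2 fold change 1.58 ± 0.29, adjusted p = 1.4e-04) and at 191 against 26.4 CPM at 24 h (2.85 ± 0.30, adjusted p = 4.9e-07). Its Mock libraries at 24 h ranged from 10.4 to 39.8 CPM.

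The genes whose levels followed each member most closely over the 18 libraries were ranked by Pearson's r of log2(CPM + 0.5) among 12868 genes. The libraries fall into 6 conditions, so r mainly follows the condition means and is given as a description. TNFSF10 was followed most closely by HLA-F, GBP4 and IFIT2 (r = 0.999, 0.998 and 0.998), and CFLAR by RNF149, HDAC9 and GIMAP2 (r = 0.994, 0.993 and 0.993). For the signalling receptors these were CDKN1A, ALAS1 and RFFL for TNFRSF10A (r = 0.979, 0.965 and 0.962), TM2D2, PARP4 and NFKBIE for TNFRSF10B (r = 0.978, 0.966 and 0.964) and STING1, CNTNAP1 and ACSL5 for FAS (r = 0.974, 0.973 and 0.968). TNFRSF10D was followed by GPAM, CHML and CTNNAL1 (r = 0.981, 0.980 and 0.978). CASP8 shared ACSL5 and STING1 with FAS and was also close to MICB (r = 0.980, 0.979 and 0.978), and FADD had the weakest matches, RINL, ARHGEF18 and PEX16 (r = 0.937, 0.934 and 0.925).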

How the data were processed

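RNA was prepared with a stranded mRNA kit and sequenced as paired reads. The authors aligned the reads with STAR, quantified them with StringTie on GRCh38 with GENCODE v44, and deposited estimated counts per gene and per transcript. Tool versions, the read length given to the counting step and the use of strand are not given in the sources used here. Members, gene lists and tests were chosen with earlier results of these data known.

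Gene counts were filtered (total of at least 100 counts and at least 1 CPM in 1 library, 15167 genes kept), scaled by TMM (factors 0.958 to 1.06) and tested with the quasi-likelihood test of edgeR 4.0.16 (R 4.3.3) over all 18 libraries, with Benjamini-Hochberg adjustment and a threshold of 0.05. Alternatives were DESeq2 1.42.0, limma-voom (limma 3.58.1), other scalings and filters, a replicate block and each library left out. TPM was computed from the deposited transcript counts and annotated lengths. The fit was tested on simulated data.

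Named partners were the called genes with the 3 largest log2 changes in 3 comparisons: 24 h against 0 h in siNT, and siELMO1 against siNT at each time. A gene that this rule names and a marker gene are not reported here.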

Additional observations from a re-analysis of the deposited data

Results flagged for a closer look

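The response to 24 h of poly(I:C) was compared between conditions by a test of the difference of 2 log2 fold changes (edgeR, adjusted over all genes). Of the 8 tested members, 2 were called for siELMO1 minus siNT, 4 for siELMO1 minus Mock and 4 for siNT minus Mock. These counts stand beside 34.5%, 28.3% and 31% of all genes. TNFRSF10D differed in all 3 contrasts, by −1.05 for siELMO1 minus siNT, −0.48 for siELMO1 minus Mock and 0.56 for siNT minus Mock. CASP8 differed by −0.61 for siNT minus Mock and −0.42 for siELMO1 minus Mock, and CFLAR by −0.71 and −0.43 in the same contrasts. TNFRSF10B differed by 0.45 for siELMO1 minus siNT, FAS by −0.34 for siNT minus Mock and TNFRSF10A by −0.22 for siELMO1 minus Mock (adjusted p = 0.033). The TNFRSF10A difference was lost with library totals (adjusted p = 0.12), without the filter on low counts (0.24), with mitochondrially encoded genes left out (0.058), with only the libraries compared (0.080), with DESeq2 (0.055) and without any Mock library at either time, without siELMO1 replicate 3 at 0 h or without siELMO1 replicate 1 or 2 at 24 h. The FAS difference and the CFLAR difference of siELMO1 minus Mock were also lost under several refits, as given above. The contrasts share libraries with each other, and no test for single outlying values was run in groups of 3 libraries.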

How the results depend on the processing

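Of 96 combinations of 8 members and 12 comparisons, 62 were called, and 50 of these kept their call under all 27 refits (other scalings, filters and tools, a replicate block and each library left out). No called value changed sign under any of them. The shares of all genes called in the single comparisons are given above beside the member counts. How often calls of all genes were kept was not computed, so 62 and 50 do not set these members apart from other genes. Without a filter on low counts, 2 members were called in siELMO1 against Mock at 24 h in place of 5, and 3 with the compared libraries alone. For the difference in response of siELMO1 minus Mock, 2 members in place of 4 were called with library totals, without the filter or with mitochondrially encoded genes left out. Over the libraries left out, these counts ran from 2 to 5 and from 2 to 4, the lowest of the former without Mock replicate 2 at 24 h, and the count for siELMO1 minus siNT ran from 2 to 4, the highest without siNT replicate 3 at 24 h. The causes were not tested.

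With a fold change over 2 required as well, which by its construction lowers counts, members called at 24 h against 0 h were 5 in Mock, 3 in siNT and 3 in siELMO1. They were 2 in siNT against Mock at 24 h, 0 in the other comparisons of transfections, and 1, 0 and 0 for the differences in response of siELMO1 minus siNT, siELMO1 minus Mock and siNT minus Mock. Of the partners, 11, 10 and 11 passed it for 24 h against 0 h in Mock, siNT and siELMO1, beside 14.5%, 9.42% and 11.4% of all genes. For siELMO1 against siNT, siELMO1 against Mock and siNT against Mock, 4, 1 and 2 passed at 0 h, beside 14.6%, 7.79% and 6.51% of all genes, and 3, 1 and 2 at 24 h, beside 7.31%, 5.09% and 6.72%.

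Same-numbered libraries were checked for pairing through the correlation of their deviations from the group means, over all 15167 tested genes and then over the 11033 genes with a mean of at least 5 CPM. In neither set did all 3 pairs of any comparison exceed 0.1. As a hint from the data, all 6 libraries compared correlated best with their own number only in siNT against Mock at 24 h. This was over all tested genes (4 of 6 in the smaller set). The library numbered 3 was the highest of each 24 h group for TNFSF10, TNFRSF10B and CFLAR, but not for the other tested members. The correlation check cannot exclude pairing, and the labels give only a shared number, so the main fit used no pairing. The replicate block ended no member's call and added 7. TNFSF10 was then called in siNT and siELMO1 against Mock at 0 h (adjusted p = 0.0097 and 0.029), at 24 h between siELMO1 and Mock (log2 −0.39, adjusted p = 0.042) and in the differences in response of siELMO1 minus Mock and siNT minus Mock (0.033 and 0.0034). TNFRSF10B was called in the last of these (−0.24, adjusted p = 0.027), which raised its count from 4 to 6, and CASP8 in siELMO1 against siNT at 24 h (0.15, adjusted p = 0.027). Read depth limits TNFSF10 and TNF at 0 h and TNFRSF10C throughout, where a library of 0 counts allows up to between 0.0384 and 0.0753 CPM.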
